A study of Mus musculus with 4 samples.

Results

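Most genes that differed at least 1.5-fold between expanded and extinct endothelial clones in both of a pair of B16 tumors did so in opposite directions, and a small set of 111 genes of 18193 measured differed the same way in both. These 111 genes were those at least 1.5-fold apart (0.58 on the log2 scale) with the same sign within tumor A and within tumor B, with each gene read on its brightest probe set. Expression of 64 of them was lower in the expansion class and that of 47 was higher. The values came from 4 Affymetrix Mouse430_2 arrays, 1 for each class in each tumor, and every level below is a log2 value after RMA, the standard background correction, quantile normalisation and summary of such arrays.

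B16 melanoma cells were injected into C57BL/6 mice that carried a multi-color Cre reporter, and tumor vessels were dissociated 2 weeks after inoculation. Tamoxifen marked the endothelial cells with the reporter's colors, and labelled cells that were CD31+ and CD144+ (VE-cadherin) and CD45- were sorted. The expansion arrays hold the most frequent clone of tumor A or tumor B, and the extinction arrays the least frequent clone of the same tumors, so all 4 groups shared strain, reporter, tamoxifen, tumor line and sort. The promoter that drove Cre, the age and number of the mice and the number of cells behind each array are not stated in the labels, nor is whether a color held the progeny of 1 cell. With 1 array per class and tumor, a difference within a tumor has no replicate, and the p-values over 2 arrays per class measure only the spread between these arrays.

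Tumor vessels grow by sprouting. Motile tip cells lead each sprout toward angiogenic factors and express Cxcr4, Esm1, Kcne3 and Angpt2, while the stalk cells behind them divide. Dividing cells transcribe genes of DNA replication before those of mitosis: cohesin holds the copied sister chromatids together, condensin packs them, the kinetochore ties them to the spindle, and centralspindlin bundles the midzone before the cell splits. Low oxygen stabilises the HIF transcription factors, which raise genes for glucose uptake, pH balance and the prolyl hydroxylases that feed back on HIF.

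The labelled cell type was not the only one measured. Markers of melanoma cells averaged 12.12 on expansion A and 11.32 on extinction B against 7.39 on extinction A and 6.37 on expansion B, and all 13 measured melanoma markers were opposite between the tumors. Pan-endothelial markers ran the other way, at 8.41 on expansion A, 10.68 on extinction A, 11.07 on expansion B and 9.41 on extinction B. The defining genes Pecam1 (CD31), Cdh5 and Kdr were each lowest on expansion A, at 6.16, 8.69 and 8.82. Pecam1 was thus close to the median over all probe sets, 5.83, on that array, and it measured 6.90 on extinction B. The comparison in tumor A therefore set a melanoma-rich expansion array against a melanoma-poor extinction array, and in tumor B the reverse. The labels were used as given, and whether those of 1 tumor were exchanged was not tested. With the classes of 1 tumor exchanged, the 111 genes described here would be opposite between the tumors and the genes that are opposite here would be shared. The gene for CD45, Ptprc, lay between 3.63 and 4.27 on the 4 arrays, and the median level over all probe sets was 5.83. In bulk samples such as these, fewer cells of a type and less RNA per cell cannot be told apart.

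Genes 1.5-fold lower in expansion in both tumors made up 0.352% of those measured, and genes 1.5-fold higher in both made up 0.258%. By contrast 3309 genes, or 18.2%, were 1.5-fold apart in opposite directions. Within tumor A alone 3385 genes (18.6%) were 1.5-fold lower and 2199 (12.1%) higher, and within tumor B 1934 (10.6%) were lower and 3377 (18.6%) higher. At any size of difference, 2570 genes (14.1%) were lower in both tumors, 3141 (17.3%) higher in both and 12482 (68.6%) opposite. The shared set was thus a small remainder of the many differences within each tumor.

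**Figure D1:**
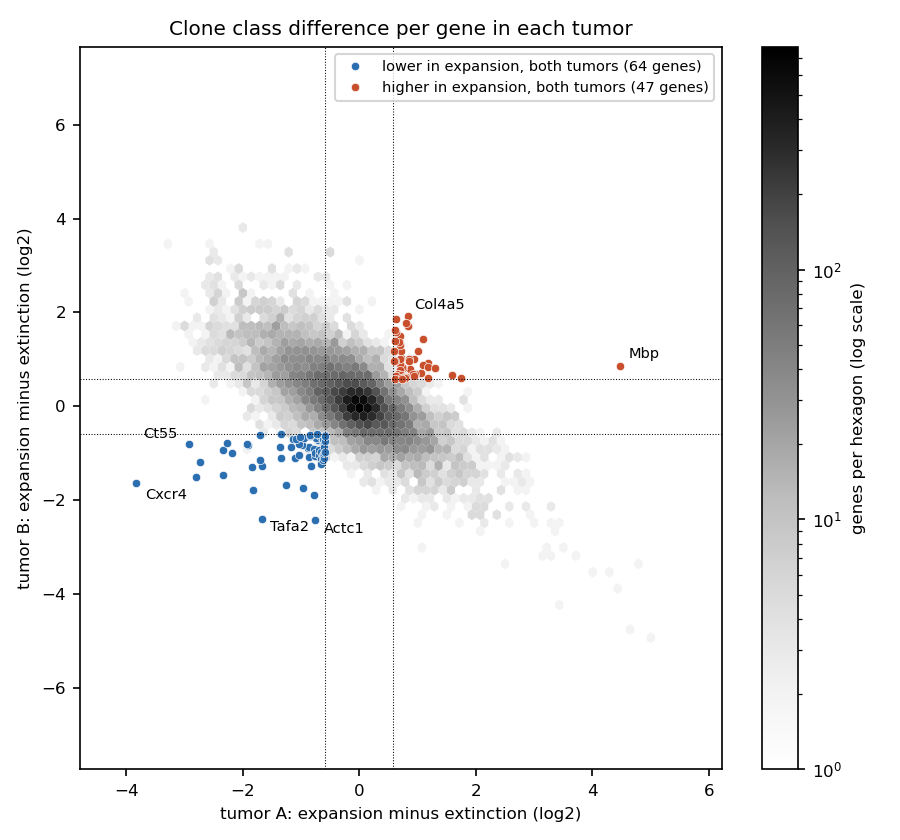
Difference between expansion and extinction in tumor A (horizontal, log2) and tumor B (vertical, log2) for 18193 genes. Grey hexagons count genes on a log scale, dotted lines mark 1.5-fold, and points mark the 64 lower and 47 higher genes. The grey cloud runs from upper left to lower right, so most genes were opposite in the tumors, and Mbp stands far from the other higher genes in tumor A.

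Most of the shared differences were modest. Of these, 14 of the 64 lower genes and 2 of the 47 higher genes were 2-fold apart in both tumors (0.077% and 0.011% of all genes), and this left 50 lower and 45 higher genes between 1.5-fold and 2-fold in at least 1 tumor. The median of the mean difference was -0.91 for the lower genes and 0.89 for the higher genes, against 0.02 over all genes. The difference was larger in tumor A for 32 of the 64 lower genes and for 20 of the 47 higher genes, against 9297 of all 18193 genes. The differences in tumors A and B were within 0.2 of each other for 19 lower and 18 higher genes, against 4443 of all 18193. Median levels were 7.63 for the lower genes, 7.12 for the higher genes and 6.88 over all genes.

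Both expansion arrays lay below both extinction arrays for 57 of the 64 lower genes, against 9.11% of all genes, and above them for 45 of the 47 higher genes, against 11.6% of all genes. That order is in large part set by how the genes were chosen. In the melanoma-rich pair, expansion A against extinction B, 58 of the 64 lower genes had the same sign and 40 were past 1.5-fold. In the melanoma-poor pair, expansion B against extinction A, these counts were 63 and 56. Of the 47 higher genes, 46 had the same sign in the rich pair, with 36 past 1.5-fold, and 46 in the poor pair, with 34 past it. These pairs cross the tumors and use the same 4 arrays, so they are a second reading of the same values and no replication. A gene's crossed differences add up to the same total as its within-tumor differences. The choice of genes thus in large part fixes these counts, and the share of all genes in each single pair is not given here. Past 1.5-fold in both crossed pairs were 32 lower and 23 higher genes, and over all genes 0.665% and 0.715% met this in the lower and higher direction.

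No gene passed a test over the arrays. By limma with Benjamini-Hochberg adjustment over 45037 probe sets, 0 were called lower and 0 higher in expansion, the smallest adjusted p was 1, and 469 had an unadjusted p under 0.05. All 111 genes had an adjusted p of 1, with standard errors of the mean difference from 0.14 to 1.28 (n = 2 arrays per class). These standard errors are limma's, which blend a gene's own spread with that of all probe sets, and they leave out the tumor pairing. An exact two-sided permutation test of 2 arrays against 2 cannot go below p = 0.333. The values below therefore describe these 4 arrays, and the grouping of the genes by role was made after their values were seen. Each gene's levels are given with tumor A before tumor B, and each mean difference is expansion minus extinction on the log2 scale with its SE.

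Several genes lower in expansion act in mitosis and on sister chromatids. Esco2, the acetyltransferase that makes cohesin cohesive during replication, measured 3.93 and 3.74 (expansion) against 5.76 and 5.53 (extinction). Cdca5 (sororin), which protects cohesin from release until anaphase, measured 9.05 and 8.92 (expansion) against 9.93 and 9.80 (extinction), a mean difference of -0.88 ± 0.15. The differences of Cdca5 were alike in the tumors, -0.88 (tumor A) and -0.88 (tumor B), and its expansion and extinction arrays did not overlap. Smc4, a core subunit of condensin, stood at 10.32 and 10.26 (expansion) against 11.18 and 10.89 (extinction), a mean difference of -0.74 ± 0.18. Cenpe, the kinesin that moves chromosomes from the kinetochore, measured 6.56 and 6.63 (expansion) against 7.91 and 7.73 (extinction), a difference that its other probe set did not share. These 4 genes were each lower on both expansion arrays than on either extinction array, as were 57 of the 64 lower genes. Of all genes 9.11% were, and for the lower genes the way they were chosen in large part sets this order.

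Partners in cell division appeared together. Kif23, the motor of centralspindlin, measured 8.20 and 8.23 (expansion) against 9.23 and 8.89 (extinction), a mean difference of -0.84 ± 0.19. Racgap1, its partner in that complex, measured 7.86 and 7.43 (expansion) against 8.54 and 8.07 (extinction), a mean difference of -0.65 ± 0.28. Cdca8 (borealin), a subunit of the chromosomal passenger complex, was at 10.72 and 10.38 (expansion) against 11.35 and 11.12 (extinction), and Racgap1 and Cdca8 are named after their values were seen. Cdc25c, the phosphatase that activates CDK1 at entry into mitosis, measured 7.05 and 6.92 (expansion) against 8.14 and 7.61 (extinction), a mean difference of -0.89 ± 0.25. Stil, a centriole duplication factor also named after its values were seen, measured 7.64 and 6.82 (expansion) against 8.25 and 7.92 (extinction). In none of these 5 genes did an expansion array reach an extinction array, as in 57 of the 64 lower genes and 9.11% of all genes.

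Genes of DNA replication and repair were also among the lower genes. Rfc3, a subunit of the clamp loader that sets PCNA on DNA, measured 6.20 and 5.68 (expansion) against 6.90 and 6.72 (extinction), with differences of -0.70 (tumor A) and -1.04 (tumor B). Gins1, part of the replicative helicase, measured 8.44 and 7.84 (expansion) against 9.04 and 8.84 (extinction), with differences of -0.60 (tumor A) and -0.99 (tumor B). Eme1, the partner of the Mus81 nuclease, measured 6.35 and 5.81 (expansion) against 7.01 and 6.93 (extinction), with differences of -0.66 (tumor A) and -1.12 (tumor B). These 3 differed more in tumor B than in tumor A, a difference that was not tested. Fancf, of the Fanconi anemia core complex, measured 6.61 and 6.21 (expansion) against 7.26 and 7.45 (extinction), a mean difference of -0.95 ± 0.22. Gen1, which resolves Holliday junctions, measured 5.43 and 5.44 (expansion) against 6.17 and 6.11 (extinction), and it differed slightly more in tumor A, with -0.74 (tumor A) and -0.67 (tumor B). E2f8, an atypical E2F that represses cell cycle genes, measured 8.71 and 7.73 (expansion) against 9.57 and 8.61 (extinction), and there expansion A lay above extinction B, so the classes overlapped.

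On the list of 40 measured kinetochore and spindle genes, 19 were lower in both tumors at any size, 0 were higher in both and 21 were opposite, against 14.1% lower and 17.3% higher over all genes. Cenpe and Kif23 were the 2 of them past 1.5-fold lower in both tumors, and 6 were past 1.5-fold in opposite directions. Mki67, the common proliferation marker, measured 11.28 and 10.31 (expansion) against 11.38 and 11.25 (extinction), so its difference was -0.10 (tumor A) and -0.94 (tumor B). Of 34 replication genes, 14 were lower in both, 1 was higher in both and 19 were opposite, with medians of -0.07 (tumor A) and -0.72 (tumor B). Of 24 cohesion and condensin genes, 7 were lower in both, 3 higher in both and 14 opposite. Esco2, Cdca5 and Smc4 were past 1.5-fold lower in both tumors, and 3 genes were past 1.5-fold in opposite directions. By limma with adjustment over all probe sets, 0 genes of any of these lists were called.

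Promoters of 3 of these genes are shown because they hold short words known from cell cycle promoters. They are the 250 bases before the annotated start, from RefSeq GRCm38.p6, 5′ to 3′ on the gene's strand. Capitals mark the CHR word (TTTGAA or TTCGAA) in Cdca5 and E2f8, and an E2F word (TTTCCCGC, TTTGGCGC, TTTCGCGC or TTTGCCGC) in Rfc3. Cdca5 lies on the plus strand at chr19:6084847-6085096, with its CHR words at -17 and -9 from the start, E2f8 on the minus strand at chr7:48881597-48881846, with its CHR word at -20 read on the opposite strand (TTCAAA as printed), and Rfc3 on the minus strand at chr5:151651209-151651458, with its E2F word at -10 and a CHR word, left in lower case, at -189.
Cdca5: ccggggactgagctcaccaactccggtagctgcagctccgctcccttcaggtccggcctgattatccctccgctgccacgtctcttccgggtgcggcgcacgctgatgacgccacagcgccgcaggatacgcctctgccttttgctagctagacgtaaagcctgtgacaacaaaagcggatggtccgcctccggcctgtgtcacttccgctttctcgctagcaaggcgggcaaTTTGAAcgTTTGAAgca
E2f8: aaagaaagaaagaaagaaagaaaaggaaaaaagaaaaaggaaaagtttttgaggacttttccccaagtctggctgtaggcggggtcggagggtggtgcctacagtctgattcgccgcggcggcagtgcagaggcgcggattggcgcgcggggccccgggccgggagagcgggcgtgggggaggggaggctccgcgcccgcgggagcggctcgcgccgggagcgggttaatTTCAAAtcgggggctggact
Rfc3: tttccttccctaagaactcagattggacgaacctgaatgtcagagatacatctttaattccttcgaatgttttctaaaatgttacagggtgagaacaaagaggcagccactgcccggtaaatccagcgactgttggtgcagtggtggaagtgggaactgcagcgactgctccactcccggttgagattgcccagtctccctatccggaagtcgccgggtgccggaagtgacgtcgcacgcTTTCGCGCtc

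Searched on both strands, a CHR word stood in 9 of 56 promoters (16.1%) of the 48 lower genes that matched, in 9 of 54 promoters (16.7%) of the 39 higher genes that matched, and in 17.1% of all 32841 promoters. An E2F word stood in 3.57% of the lower genes' promoters, 3.7% of the higher genes' promoters and 1.86% of all promoters. Genes of the cell cycle and repair lists, whether or not they differed here, held a CHR word in 26.9% and an E2F word in 16.8% of their promoters. The lower and higher genes thus held these words at close to the same rate. A match is a run of letters and shows no binding.

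Several genes of the tip cell list were lower in expansion, with Cxcr4 the largest mean difference of all 64 lower genes. Cxcr4, the receptor for CXCL12, measured 6.51 and 7.37 (expansion) against 10.34 and 8.99 (extinction), 14.2-fold lower in tumor A and 3.09-fold lower in tumor B. Esm1 (endocan), a proteoglycan secreted by tip cells, measured 9.99 and 10.44 (expansion) against 12.33 and 11.36 (extinction), a mean difference of -1.63 ± 0.43. Kcne3, a potassium channel subunit, measured 8.04 and 9.02 (expansion) against 10.78 and 10.21 (extinction), a mean difference of -1.96 ± 0.46. All 3 differed more in tumor A, and extinction A was the highest array for each. Pgf, placenta growth factor and a ligand of VEGF receptor 1, measured 9.21 and 8.46 (expansion) against 9.87 and 9.44 (extinction), and it differed more in tumor B. These 4 genes were the part of the 20-gene tip cell list past 1.5-fold lower in both tumors. Another 8 of the list were past 1.5-fold in opposite directions. A total of 8 of the 20 were lower in both at any size, 0 higher in both and 12 opposite, with medians of -1.48 (tumor A) and 0.24 (tumor B). Angpt2, a Tie2 ligand on the same list, differed by -1.15 (tumor A) and -0.52 (tumor B), and the medians of the pan-endothelial markers were -2.43 (tumor A) and 1.66 (tumor B). Their part in the result was not tested.

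Genes for matrix and secreted factors formed the next group. Tnc, the matrix glycoprotein tenascin C, measured 10.46 and 10.06 (expansion) against 12.30 and 11.36 (extinction), a mean difference of -1.57 ± 0.41. Ltbp2, which binds elastic microfibrils, measured 8.43 and 7.20 (expansion) against 10.13 and 8.35 (extinction), a mean difference of -1.43 ± 0.84, and its classes overlapped between the tumors. Thbs1 (thrombospondin 1), an inhibitor of angiogenesis and activator of latent TGF-beta, measured 7.83 and 8.44 (expansion) against 9.18 and 9.03 (extinction), a mean difference of -0.97 ± 0.28. Of 31 measured matrix genes, these 3 were past 1.5-fold lower in both, 8 were lower in both at any size, 1 was higher in both and 22 were opposite.

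Among the secreted factors, Inhba, the subunit of activin A, measured 11.00 and 9.97 (expansion) against 12.27 and 11.65 (extinction), a mean difference of -1.47 ± 0.48. Lif, an interleukin-6 family cytokine, measured 7.04 and 7.37 (expansion) against 9.23 and 8.37 (extinction), a mean difference of -1.60 ± 0.38. Csf2 (GM-CSF), a myeloid growth factor, measured 7.92 and 8.22 (expansion) against 8.74 and 9.49 (extinction), a mean difference of -1.05 ± 0.34. Pdgfa, a growth factor for mesenchymal cells named after its values were seen, measured 9.50 and 9.14 (expansion) against 10.34 and 9.76 (extinction), a mean difference of -0.73 ± 0.29. None of these 4 had overlapping classes, as for 57 of the 64 lower genes, an order in large part set by the choice of genes. Fibroblast markers averaged 11.70 on expansion A, 12.72 on extinction A, 13.01 on expansion B and 12.20 on extinction B, with 12 of 12 opposite between the tumors. Pericyte and smooth muscle markers averaged 9.79, 10.68, 9.89 and 9.62 on the same arrays, with 5 of 14 lower in both tumors and 9 opposite. Their part in these differences was not tested.

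Some genes tied to low oxygen, glucose and pH were lower as well. Egln3, a prolyl hydroxylase that marks HIF for degradation, measured 7.59 and 6.49 (expansion) against 8.37 and 8.38 (extinction), with differences of -0.78 (tumor A) and -1.89 (tumor B). Mgarp, a mitochondrial protein, measured 7.19 and 7.04 (expansion) against 8.23 and 8.07 (extinction), and its differences were alike in the 2 tumors, -1.04 (tumor A) and -1.04 (tumor B). Slc2a3 (GLUT3), a glucose transporter, measured 10.36 and 9.13 (expansion) against 11.23 and 10.22 (extinction), a mean difference of -0.98 ± 0.62, and its classes overlapped between the tumors. Car12, a carbonic anhydrase that acts on extracellular pH, measured 6.83 and 6.65 (expansion) against 9.10 and 7.44 (extinction), with most of its difference in tumor A. Ndufa4l2, a mitochondrial protein known as a HIF target and a pericyte marker, measured 9.60 and 9.00 (expansion) against 10.19 and 9.62 (extinction), and lay just inside the threshold. On the 25-gene hypoxia list, Egln3 and Mgarp were past 1.5-fold lower in both tumors, and 8 genes were past 1.5-fold in opposite directions. At any size 7 genes of the list were lower in both, 0 were higher in both and 18 were opposite. Car9 differed by 2.89 in tumor A and by -4.02 in tumor B. The HIF core word (ACGTG or GCGTG) stood in 57.1% of the lower genes' promoters, 59.3% of the higher genes' promoters and 38.6% of all promoters, against 81.8% for the hypoxia list.

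A few genes best known from blood cells were lower too. Ms4a6d, a membrane protein of myeloid cells, measured 5.47 and 5.83 (expansion) against 7.81 and 7.30 (extinction), a mean difference of -1.91 ± 0.28. Cd53, a leukocyte tetraspanin, measured 7.01 and 5.48 (expansion) against 8.19 and 6.36 (extinction), with overlapping classes and an SE of 0.92. Coro1a, an actin regulator abundant in leukocytes, measured 5.01 and 4.86 (expansion) against 5.78 and 5.92 (extinction), a mean difference of -0.91 ± 0.16. Of 18 macrophage and leukocyte markers, 2 were past 1.5-fold lower, 4 lower in both, 3 higher in both and 11 opposite. The whole list averaged 5.23 on expansion A, 5.45 on extinction A, 5.28 on expansion B and 5.34 on extinction B. Its members were uneven: Ptprc, Itgam and Adgre1 lay between 3.50 and 4.42 on every array, while Cd53 and Ms4a6d reached 8.19 and 7.81 on extinction A.

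The other named lower genes had no shared role fixed here. Tafa2, a secreted protein, measured 5.14 and 3.93 (expansion) against 6.81 and 6.33 (extinction), and Tmem255a, a membrane protein, measured 7.16 and 7.83 (expansion) against 9.97 and 9.34 (extinction), with both of them past 2-fold in both tumors. Actc1, cardiac actin, measured 6.55 and 5.93 (expansion) against 7.31 and 8.37 (extinction), with most of its difference in tumor B. Ct55, a cancer/testis antigen, measured 5.30 and 5.11 (expansion) against 8.22 and 5.91 (extinction), with most of its difference in tumor A. Ncam1, a neural cell adhesion molecule, measured 8.39 and 8.01 (expansion) against 9.43 and 8.83 (extinction), and Crabp2, which carries retinoic acid to its receptor, measured 5.63 and 5.43 (expansion) against 6.38 and 6.42 (extinction). Zmynd19 measured 6.60 and 6.59 (expansion) against 7.70 and 7.70 (extinction), the smallest SE of the lower genes at 0.14, with differences of -1.10 (tumor A) and -1.11 (tumor B). Cped1, Mettl4, Ptges3l, Kif26b, Ints12, Lgi1, Ociad2, Mex3d, Cfap69 and Micall2 had mean differences from -1.47 to -0.71. At the threshold, Ndufa4l2, Zfp91 and Thbs1 lay just inside it with a smaller difference of 0.589, 0.587 and 0.585, and Pwwp3a, Lxn and 2700099C18Rik lay just outside it at 0.583, 0.583 and 0.581.

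**Figure D2:**
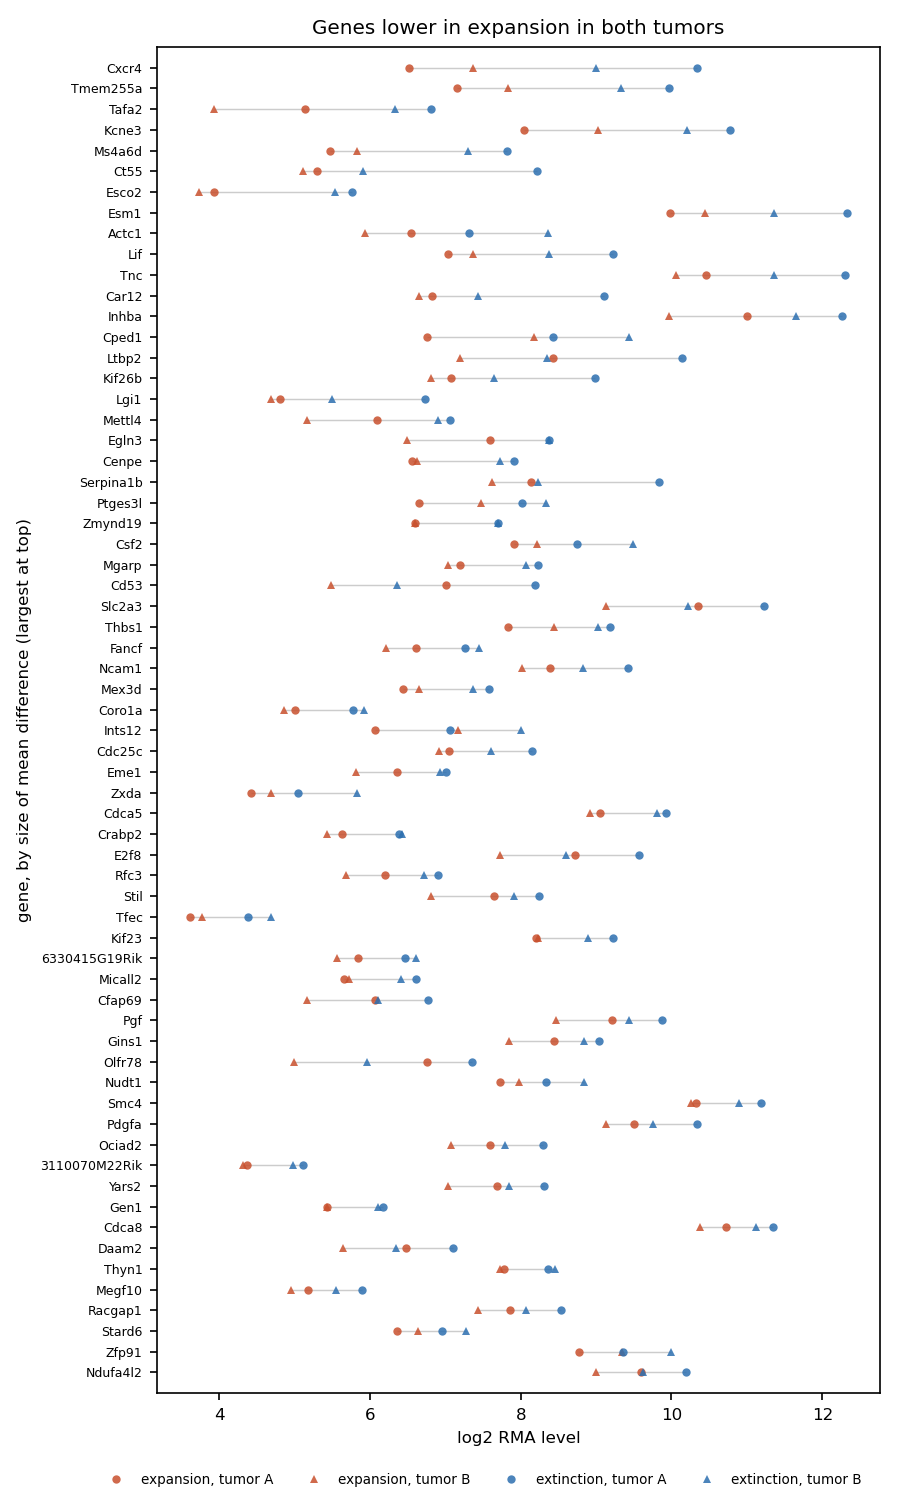
Levels (log2 RMA) of the 64 genes lower in expansion, one row per gene with the largest mean difference at the top, and 1 point per array. Red marks expansion, blue extinction, circles tumor A and triangles tumor B. Both red points lie left of both blue points in 57 rows, and in Ltbp2, Cd53, Slc2a3, E2f8, Ints12, Daam2 and Olfr78 they do not.

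The 47 genes higher in expansion held 1 gene of the 29 lists, where 562 of all 18193 measured genes were on a list. Of the 64 lower genes 22 were, and the lists were chosen with results of these arrays known. The listed gene among the 47 was Acss1, which makes acetyl-CoA from acetate in mitochondria. It measured 5.33 and 6.33 (expansion) against 4.24 and 4.91 (extinction), 2-fold apart in both tumors. Of the 28 measured genes of its list of acetate, fatty acid and mitochondrial enzymes, 5 were higher in both tumors at any size, 5 lower in both and 18 opposite. The other higher genes were enzymes, junction and matrix genes, transcription and signaling genes and others, grouped by role only after their values were seen.

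Among the enzymes, Ephx1, the microsomal epoxide hydrolase, measured 10.36 and 10.79 (expansion) against 9.42 and 9.79 (extinction), a mean difference of 0.97 ± 0.26. Abat, the transaminase that breaks down GABA, measured 5.70 and 6.25 (expansion) against 4.87 and 4.54 (extinction), with differences of 0.83 (tumor A) and 1.71 (tumor B). Smpdl3a, a phosphodiesterase, measured 9.22 and 10.04 (expansion) against 8.41 and 8.27 (extinction), with differences of 0.80 (tumor A) and 1.77 (tumor B). Both Abat and Smpdl3a differed more in tumor B. Nat8, an acetyltransferase, measured 7.15 and 7.33 (expansion) against 6.45 and 6.43 (extinction), a mean difference of 0.80 ± 0.15. Etnk1, which phosphorylates ethanolamine for phosphatidylethanolamine synthesis and is named after its values were seen, measured 11.12 and 10.60 (expansion) against 10.18 and 9.95 (extinction). The classes did not overlap in any of these 5 genes, as in 45 of the 47 higher genes. Of all genes 11.6% had both expansion arrays above, and for the higher genes the choice in large part sets this order.

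At the cell surface and in the matrix, Pkp4, a plakophilin of cell junctions, measured 10.88 and 11.56 (expansion) against 9.81 and 10.86 (extinction), and Afdn (afadin), which ties nectins to actin and is named after its values were seen, measured 10.23 and 11.08 (expansion) against 9.61 and 9.23 (extinction). Afdn differed most in tumor B, by 1.85 against 0.63 in tumor A. Col4a5, a collagen of basement membranes, measured 7.47 and 7.96 (expansion) against 6.64 and 6.03 (extinction), with differences of 0.83 (tumor A) and 1.93 (tumor B). Gpr155 and Atl1, an endoplasmic reticulum GTPase, had mean differences of 1.01 ± 0.34 and 1.09 ± 0.48. Csf2rb, the shared receptor chain for GM-CSF, interleukin-3 and interleukin-5, measured 10.30 and 11.13 (expansion) against 9.60 and 9.82 (extinction), a mean difference of 1.00 ± 0.36. Its near copy Csf2rb2 may share probes with it, so its value is uncertain. Csf2 was thus among the lower genes and a chain of its receptor among the higher ones.

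Transcription and signaling genes made a further group. Foxc1, a forkhead factor of vessel development, measured 7.88 and 8.02 (expansion) against 7.15 and 7.20 (extinction), a mean difference of 0.78 ± 0.15. Per1, a repressor of the circadian clock, measured 8.46 and 8.11 (expansion) against 7.55 and 7.43 (extinction), a mean difference of 0.80 ± 0.20. Aff3, a nuclear factor of transcription elongation, measured 9.40 and 9.33 (expansion) against 8.10 and 8.51 (extinction), a mean difference of 1.06 ± 0.21. In these 3 genes every expansion array was above every extinction array, as in 45 of the 47 higher genes and 11.6% of all genes. Pik3cb, a catalytic subunit of PI3-kinase, measured 5.94 and 6.70 (expansion) against 5.26 and 5.34 (extinction), and Ppp2r3a, a regulatory subunit of protein phosphatase 2A, measured 6.90 and 7.17 (expansion) against 6.21 and 6.16 (extinction). Cyld, a deubiquitinase that restrains NF-kappaB, measured 9.35 and 9.37 (expansion) against 8.74 and 7.99 (extinction), with Vcpip1, a second deubiquitinase, at 8.47 and 7.97 (expansion) against 7.61 and 6.98 (extinction), and Rnf167, a ubiquitin ligase, at 8.20 and 7.98 (expansion) against 7.50 and 7.20 (extinction). Cyld is named after its values were seen. Tiparp, a mono-ADP-ribosyltransferase named after its values were seen, had the highest level of the higher genes, at 11.24 and 11.54 (expansion) against 10.63 and 10.57 (extinction).

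Some other higher genes encode proteins of centrosomes or cilia, as do Stil and Cfap69 among the lower genes. Iqcb1, a ciliary protein, measured 7.91 and 7.61 (expansion) against 6.96 and 6.93 (extinction), and Cep70, a centrosome protein just inside the threshold, measured 6.38 and 6.27 (expansion) against 5.67 and 5.68 (extinction). Cntrl (centriolin), named after its values were seen, measured 7.18 and 6.63 (expansion) against 6.01 and 6.04 (extinction). Dzip1, of the ciliary base, measured 6.73 and 6.57 (expansion) against 5.14 and 5.91 (extinction), a mean difference of 1.13 ± 0.33.

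Mbp (myelin basic protein) had the largest mean difference of the higher genes, 2.67 ± 1.28, and the largest SE of all 111. It measured 9.57 and 9.28 (expansion) against 5.08 and 8.42 (extinction), and extinction A alone was low: expansion B and extinction B differed by 0.86. The size of its mean difference thus turned on 1 array, and without extinction A it was 1.00. Il18, an inflammatory cytokine, measured 8.05 and 8.96 (expansion) against 7.44 and 8.38 (extinction), just inside the threshold and with overlapping classes. Garre1 measured 10.45 and 10.16 (expansion) against 9.72 and 9.57 (extinction). Plekhb1, Zfp760 and Zfp202 had mean differences of 0.91 ± 0.37, 0.98 ± 0.29 and 0.69 ± 0.16. Just outside the threshold, with a smaller difference of 0.576, 0.573 and 0.569, lay Slc25a35, Zfp563 and Hsd17b11.

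**Figure D3:**
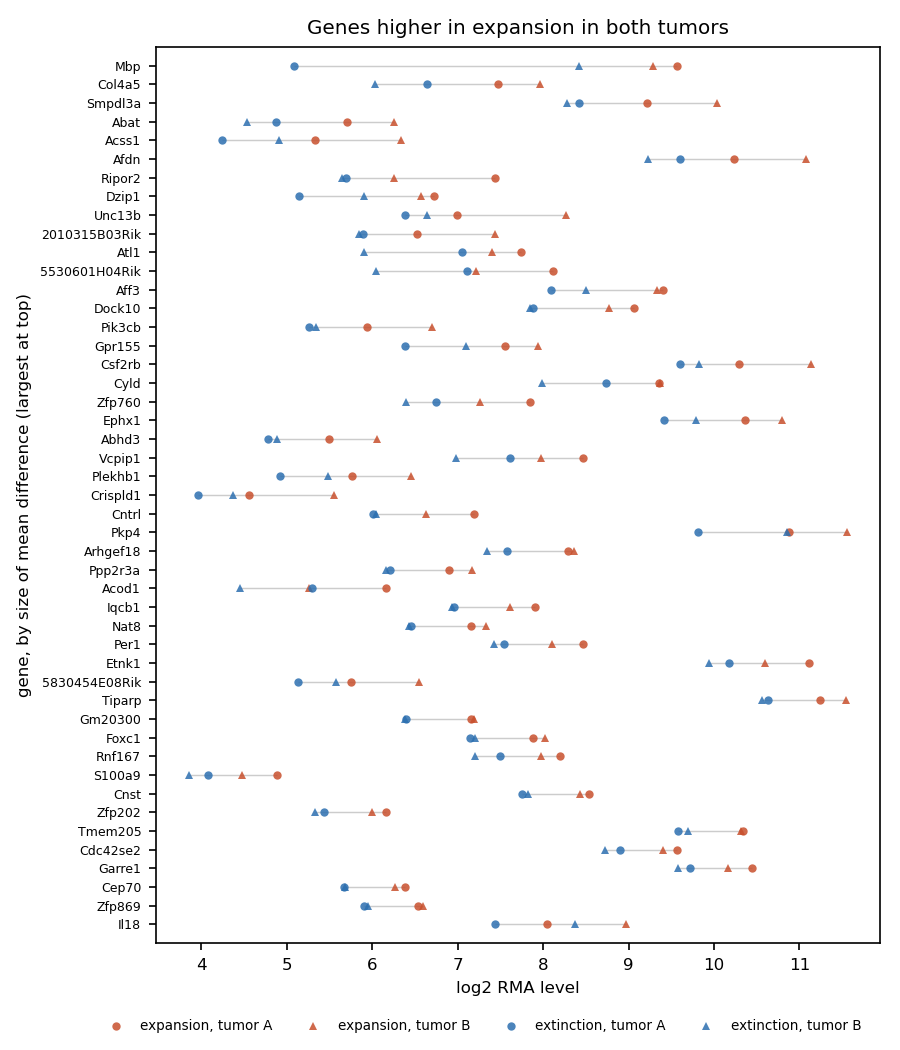
Levels (log2 RMA) of the 47 genes higher in expansion, one row per gene with the largest mean difference at the top, and 1 point per array. Red marks expansion, blue extinction, circles tumor A and triangles tumor B. Both red points lie right of both blue points in 45 rows, and in Acod1 and Il18 they do not.

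A gene on this array can have several probe sets, which can read different or shared stretches of its transcripts. The dimmer ones give a second reading of the same RNA. Of the 64 lower genes 22 had 1 probe set and 42 had more, and of the 47 higher genes 22 had 1 and 25 had more. All probe sets were lower in both tumors for 18 of the 42 lower genes, and all were 1.5-fold lower for Esco2, Cped1, Rfc3, Serpina1b and Yars2, of which the last 2 are named for this after their values were seen. For 15 of the 42 no other probe set had the same sign in both tumors. These were Inhba, Cenpe, Lif, Mettl4, Cdca5, Cd53, Ints12, Lgi1, Kif23, Fancf, Zxda, Daam2, Gins1, Thyn1 and Thbs1. For 8 lower genes at least 1 other probe set was higher in both tumors.

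The other probe sets of the lower genes numbered 67, and 35 of them (52.2%) were lower in both tumors, 22 opposite and 10 higher in both. Among all 16752 dimmer probe sets of named genes 15.8% were lower in both. Past 1.5-fold were 10 of the 67, against 0.334% of all dimmer probe sets. The 27 whose level reached 5.83 or more, the median of all probe sets, had the same sign in 20 cases (74.1%), against 12.7% of all 7884 such dimmer probe sets, and the 40 below it in 15 cases (37.5%). Probe sets below that median thus held most of those without the same sign: the second one for Inhba lay between 4.69 and 4.98 and that for Lif between 4.40 and 4.67. Second probe sets above that median without the same sign belonged to Cdca5, Cenpe, Ints12, Thbs1, Thyn1, Zfp91 and Zmynd19. The second Cenpe probe set, at a mean level of 7.06 against 7.21 for the one described above, differed by 0.28 (tumor A) and -0.08 (tumor B). Zmynd19 had others at 0.10 and 0.38 and, with the same sign, at -0.11 and -0.10. The second Cdca5 probe set differed by -1.03 (tumor A) and 0.08 (tumor B), and the second Thbs1 probe set by -2.22 and 1.05. Smc4 had others at -0.57 and -0.59 and at -0.09 and 0.00, and Tnc had 1 at -2.69 and -0.42.

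The other probe sets of the higher genes had the same sign in a smaller share, a difference that was not tested. Of the 25 genes with more than 1, Col4a5, Pkp4 and Csf2rb were higher in both tumors on all of them, and 0 were 1.5-fold higher on all. For 15 of the 25 no other probe set had the same sign in both tumors. Those described above were Vcpip1, Abat, Aff3, Foxc1, Atl1, Ppp2r3a, Etnk1, Afdn, Cntrl, Cep70 and Garre1. For 6 higher genes, Abat and Atl1 among them, at least 1 other probe set was lower in both tumors. The 51 other probe sets were higher in both tumors in 15 cases (29.4%), opposite in 30 and lower in both in 6, against 16.9% higher in both among all dimmer probe sets. Of those reaching that median, 10 of 23 (43.5%) were higher in both, against 11.9% of all such probe sets, and 4 were past 1.5-fold, where 0.304% of all dimmer probe sets were. These 4 all belonged to Mbp, so without Mbp none of the bright ones was past 1.5-fold. Dzip1 had a second probe set at 4.13 (tumor A) and -3.65 (tumor B), the signs of the melanoma markers, whose median differences were 4.68 and -5.34. All probe sets of a gene were read on the same 4 arrays, so they check the probes and not the samples.

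**Figure D4:**
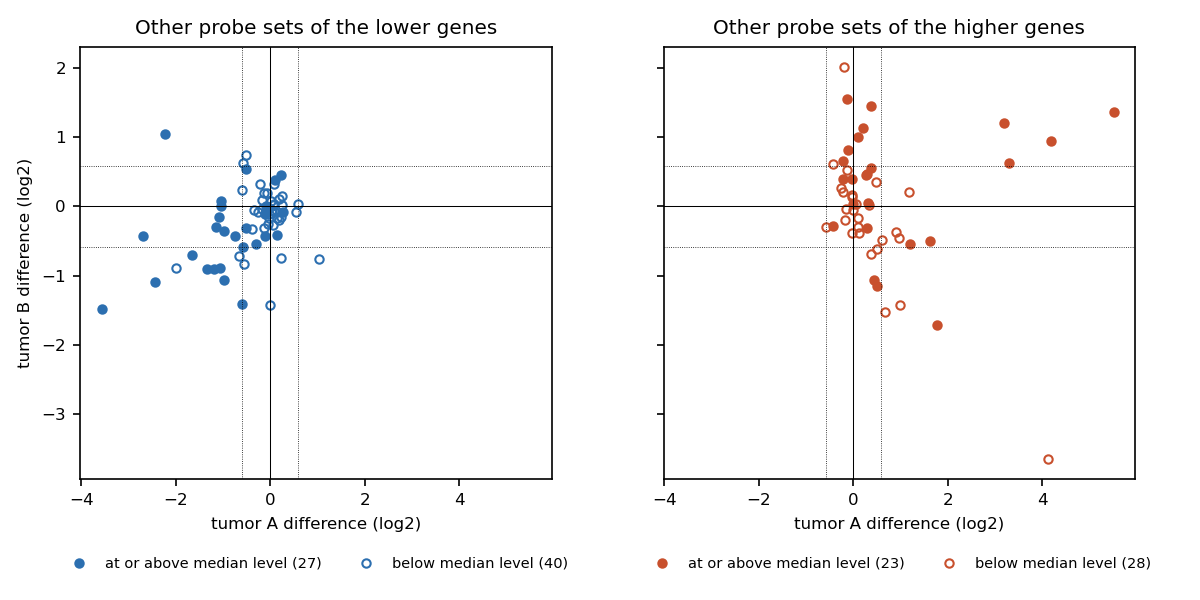
Difference in tumor A (horizontal, log2) and tumor B (vertical, log2) for the 67 other probe sets of the lower genes (left) and the 51 of the higher genes (right). Filled points reach the median level, 5.83, and open points do not, and dotted lines mark 1.5-fold. In the left panel 20 of 27 filled points lie in the lower left, and in the right panel 10 of 23 lie in the upper right.

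Across the lists the shared direction was uneven. Pan-endothelial, melanoma, fibroblast and interferon response genes were opposite in the 2 tumors without exception, with 20, 13, 12 and 21 genes measured. Lists with no gene higher in both tumors and several lower were kinetochore and spindle (19 of 40), tip cell (8 of 20), hypoxia (7 of 25) and pericyte (5 of 14). Keratinocyte markers had 5 of 11 higher in both and 0 lower, at a median level of 4.89, below the 5.83 of all probe sets. The lists share genes and were chosen with results of these arrays known, so the counts describe them and test nothing.

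**Figure D5:**
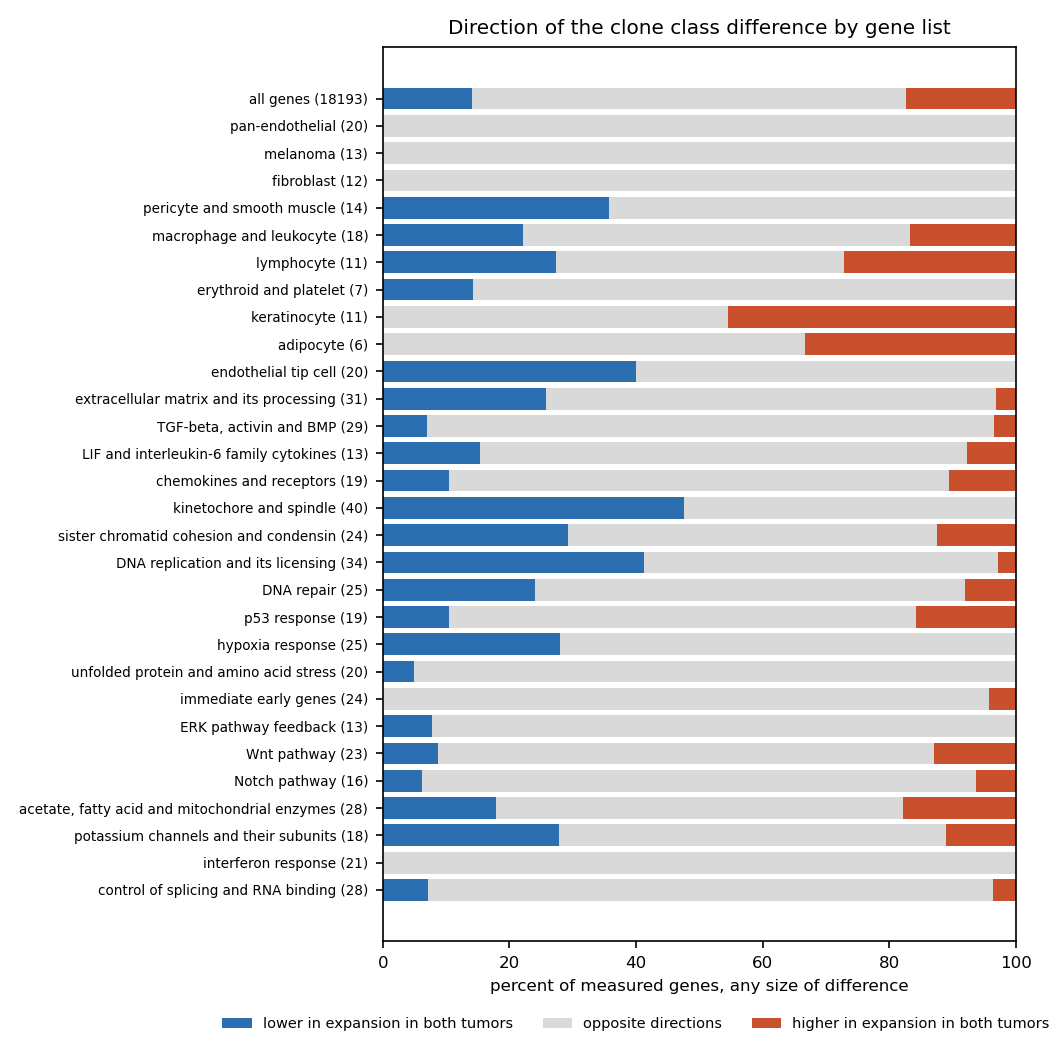
Percent of each list's measured genes (number in brackets) with lower expression in the expansion class of both tumors (blue), opposite between tumors (grey) or higher in both (red), at any size of difference. Over all genes 14.1% were lower in both and 17.3% higher in both, and on the kinetochore and spindle list 47.5% were lower and 0 genes were higher.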

How the data were processed

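Per the labels' protocols, TRIzol RNA of 4 sorted samples went through 2 rounds of amplification and biotin labelling. The deposited log2 values were made by the authors with RMA in affy, going by the submitters' processing notes (no version is named there). RMA fits all arrays together, and amplification can enlarge differences where RNA is scarce. The number of arrays limits the precision, and array medians ran from 5.73 to 5.83.

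Of 45101 probe sets 64 controls were set aside. Gene symbols came from the platform annotation, checked through gene IDs in RefSeq (0 symbols changed): 34945 probe sets had 1 symbol, 932 several and 9160 were not listed there. The brightest probe set stood for each of 18193 genes. Differences were taken within each tumor, and classes were compared with limma 3.58.1 in R 4.3.3 (two-sided, Benjamini-Hochberg over 45037 probe sets, threshold 0.05), tested on simulated data. By their labels, arrays with a shared number share a tumor, so the numbers pair them; their deviations from class means correlated at r = -0.67 over 45037 probe sets.

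Named were all such genes on 29 lists (562 of 592 listed genes measured), up to 25 further genes per direction by their smaller difference with a higher-class mean at or above 5.83, clone names left out, the 3 nearest the 1.5-fold threshold on either side, and 10 check genes; a few genes that met this rule are not reported here. The genes and lists were chosen with earlier results of these data known. RefSeq promoters (GRCm38.p6) matched 48 lower and 39 higher genes, and 250 bases before the start were searched. Alternatives were another normalisation, a level filter, averaged probe sets, a tumor block and each array left out.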

Additional observations from a re-analysis of the deposited data

Results flagged for a closer look

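For 10 of the lists the median difference between expansion and extinction had opposite signs in tumors A and B with each past 1.5-fold. The difference between the tumors was not tested, since each holds 1 array per class. The gap, the tumor A median minus the tumor B median on the log2 scale, was 10.02 for melanoma markers (4.68 in tumor A and -5.34 in tumor B). It was -4.09 for pan-endothelial markers, which were lower in expansion in tumor A (-2.43) and higher in tumor B (1.66). Fibroblast markers gave -1.65. Among pathways, Notch genes gave -2.56, LIF and interleukin-6 family cytokines -2.34, interferon response genes -2.25 and immediate early genes -2.10. TGF-beta, activin and BMP genes gave -1.99, chemokines and their receptors -1.71 and ERK pathway feedback genes -1.63. All the pathway lists were lower in expansion in tumor A and higher in tumor B, as the pan-endothelial markers were, and their part in this was not tested. Inhba, Lif and Cxcr4 are on these lists and were lower in expansion in both tumors.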

How the results depend on the processing

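The count of genes apart in both tumors was 14 lower and 2 higher at 2-fold in each tumor. With the mean of all probe sets of a gene at 1.5-fold it was 35 lower (31 shared with the 64) and 26 higher (25 shared with the 47), and with every probe set required to be past 1.5-fold it was 27 and 22, of which 22 and 22 have only 1 probe set and so pass without a check, leaving 5 of 42 and 0 of 25. Under the other settings it ran from 47 to 76 for the lower genes and from 37 to 49 for the higher genes. It was 47 and 41 when only genes with a brightest probe set of the plain type were counted. That setting was added after seeing the data. The genes themselves shifted too. After quantile normalisation again it was 76 lower (58 shared with the 64) and 49 higher (38 shared with the 47). With array medians subtracted it was 68 lower (56 shared) and 49 higher (37 shared). The both-tumor counts cannot be given without an array, as that tumor then lacks a class. With limma, 0 probe sets were called in either direction under all settings, from 0 to 0 with each array left out. With the tumor as a replicate block 0 lower and 0 higher were called, 128 had an unadjusted p under 0.05 and the block changed no call. A block that crosses the tumors, added after seeing the data, also gave 0 calls, with 1440 at an unadjusted p under 0.05 and a smallest adjusted p of 0.999. Of the 111 genes 110 kept their sign without any 1 array, and Olfr78 went from -0.78 to 0.11 without expansion B. The choice of genes by sign and size in both tumors in large part fixes this count. The share of all genes that kept their sign is not given here. Sizes held less well: leaving out some 1 array moved the mean difference by over 1.5 times for 30 of the 64 lower and 20 of the 47 higher genes (10 and 7 without expansion A, 18 and 7 without extinction A, 17 and 13 without expansion B, 15 and 8 without extinction B). Without extinction A it went from -1.02 to -0.11 for Cd53, -1.43 to -0.54 for Ltbp2, -1.86 to -0.71 for Ct55, 0.60 to 0.13 for Il18 and 0.88 to 0.36 for Pkp4, and without expansion B from -0.87 to -0.38 for E2f8. With 2 arrays per class, the spread of each class is barely known.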
